A study of Mus musculus with 4 samples.

Results

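The data describe 42 imprinted genes of the mouse, found by gene symbol among the 55401 genes of a count table. RNA-seq compared WT E14 mESCs (an established mouse embryonic stem cell line) with Haspin-KO E14 mESCs, in which Haspin, the kinase that phosphorylates threonine 3 of histone H3 in mitosis, was disrupted by CRISPR/Cas9. The comparison was made to look for genes downstream of Haspin. There were 2 WT and 2 Haspin-KO libraries, numbered as replicates 1 and 2 in each group, and both groups grew without further treatment in serum medium with LIF and 2i. Haspin-KO lines were single clones picked for loss of the histone mark, and the labels do not say which clone gave which library. Nothing states that the libraries of a group came from separate cultures, so that p-values measure the spread between these libraries, which may be technical. The mESCs were passaged on mitomycin-treated mouse embryonic fibroblasts, while gelatin-coated dishes were used for assays. Which of these gave the sequenced RNA is not stated.

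An imprinted gene is transcribed mainly from the copy inherited from one parent. For most, that copy and the other carry different DNA methylation at a control region set in the germ line. Imprinted genes often lie in clusters, or domains, in which a paternally expressed noncoding RNA often silences neighbouring maternally expressed genes in cis. Many of them act on growth of the embryo and placenta, and imprints are known to be unstable in cultured mESCs. The counts used here do not separate the parental alleles. A level is therefore the sum of both copies, and "paternal" or "maternal" names the allele known to be expressed in mouse tissues.

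The members lie in 21 domains on 10 chromosomes. For 24 of them the paternal allele is known to be expressed and for 18 the maternal allele. Enough counts for a test were present for 38 members. Airn, Asb4 and Magel2 had at most 8 counts in any library, and Kcnk9, a potassium channel gene of the Peg13 domain, had 0 counts in all 4 libraries, which allows up to 3 counts per library.

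The library totals were 21834847 and 17452307 counts in WT and 14207828 and 14436750 counts in Haspin-KO. Haspin itself fell from 39.99 and 35.6 CPM (counts scaled to the library size by TMM) in the WT libraries to 10.4 and 14.6 CPM in the Haspin-KO libraries, with a log2 fold change of -1.60 (standard error, SE, 0.16, adjusted p = 0.00154 from edgeR). All 10 mESC markers were counted in every library, and 0 of them passed an adjusted p of 0.05 in edgeR (3 had an unadjusted p under 0.05). Of 15 fibroblast markers, 12 were tested, and 9 of these were lower in Haspin-KO past an adjusted p of 0.05 and 0 were higher. Their summed level was 1757.7 and 1830.9 CPM in WT and 1659.2 and 1649.9 CPM in Haspin-KO, most of it from Fn1, which mESCs also transcribe, and without Fn1 it was 225 and 168 CPM in WT and 33.6 and 34.2 CPM in Haspin-KO. Of the 6 defining fibroblast markers, Postn had 171 and 77 counts in WT and 0 in both Haspin-KO libraries. Dcn was also at 0 in both Haspin-KO libraries, but it had only 4 and 2 counts in WT and was not tested. In bulk RNA, fewer cells of a type and less RNA per cell cannot be told apart.

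The promoters of 4 of the 5 members past an adjusted p of 0.05 that have a RefSeq promoter window are shown first. Methylation at such sequences can differ between the parental alleles, but a window need not cover the control region of its domain. Each runs from 250 bases before to 50 bases after a RefSeq transcript start (GRCm38.p6), 5′ to 3′ on the gene's strand. Capitals mark TGCCGC or its reverse complement GCGGCA, the letters that ZFP57, a zinc finger protein known to keep imprints methylated, reads when methylated.
Kcnq1ot1, chr7:143296498-143296797, minus strand: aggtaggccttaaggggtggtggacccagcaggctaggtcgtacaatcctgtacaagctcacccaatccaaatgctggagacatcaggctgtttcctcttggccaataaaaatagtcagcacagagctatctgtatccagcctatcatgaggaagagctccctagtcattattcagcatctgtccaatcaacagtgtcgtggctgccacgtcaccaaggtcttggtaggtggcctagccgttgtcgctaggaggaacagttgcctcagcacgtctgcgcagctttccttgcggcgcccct
Peg3, chr7:6730370-6730669, minus strand: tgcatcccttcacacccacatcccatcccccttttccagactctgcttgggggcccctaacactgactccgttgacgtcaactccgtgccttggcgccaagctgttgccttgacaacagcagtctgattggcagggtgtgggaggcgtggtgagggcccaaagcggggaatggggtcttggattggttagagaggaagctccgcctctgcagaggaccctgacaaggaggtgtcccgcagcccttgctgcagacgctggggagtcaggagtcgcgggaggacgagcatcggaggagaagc
Meg3, chr12:109540746-109541045, plus strand: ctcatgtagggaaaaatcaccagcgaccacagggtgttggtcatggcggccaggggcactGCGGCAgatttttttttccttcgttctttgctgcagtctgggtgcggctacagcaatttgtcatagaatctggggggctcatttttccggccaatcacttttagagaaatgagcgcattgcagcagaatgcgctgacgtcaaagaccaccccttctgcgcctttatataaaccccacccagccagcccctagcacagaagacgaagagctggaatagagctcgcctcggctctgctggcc
Mest, chr6:30737800-30738099, plus strand: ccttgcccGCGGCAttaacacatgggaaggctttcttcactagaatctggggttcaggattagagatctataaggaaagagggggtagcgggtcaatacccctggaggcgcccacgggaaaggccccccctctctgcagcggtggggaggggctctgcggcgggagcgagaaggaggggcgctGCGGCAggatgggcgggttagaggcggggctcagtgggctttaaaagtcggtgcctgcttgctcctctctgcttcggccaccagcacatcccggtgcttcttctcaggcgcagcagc
The Mest window shown held 2 matches and the Meg3 window shown 1, while the Kcnq1ot1 and Peg3 windows held 0. Mest has 2 other windows, not shown, one almost the same as that shown with 2 matches and one further upstream with 0. The other window of Meg3 held 0. The window of Rian, the fifth, held 0 matches and 0 CpG dinucleotides and is not shown. A window with at least 1 match made up 11.6% of all 32851 promoter windows of the mouse, and one with at least 2 matches 1.53%. Of 52 windows listed for 33 members, 12 (23.1%) held a match. They belonged to 11 members, with the most matches (3) in a window of Zdbf2. The member windows also held more CpG dinucleotides, with a median of 13 against 7 in all windows. A match describes letters in a window and is no measure of binding or methylation, neither of which was assayed.

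Several members are also hosts of microRNAs, which are cut from the host transcript or its introns. The mature sequences from RefSeq are given for H19, Mest, Meg3 and Rian, whose host RNA is described here (for Rian, 1 of its 3 hairpins), with the seed (bases 2 to 8) in capitals.
mmu-miR-675-5p: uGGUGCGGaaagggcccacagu
mmu-miR-675-3p: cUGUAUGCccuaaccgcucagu
mmu-miR-335-5p: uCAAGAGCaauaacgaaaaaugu
mmu-miR-335-3p: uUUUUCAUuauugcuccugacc
mmu-miR-770-5p: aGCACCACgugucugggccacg
mmu-miR-770-3p: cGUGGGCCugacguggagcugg
mmu-miR-370-5p: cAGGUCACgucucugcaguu
mmu-miR-370-3p: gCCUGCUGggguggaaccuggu
They come from H19 (miR-675), Mest (miR-335), Meg3 (miR-770) and Rian (miR-370), and the sequences shown share no seed among them. Mirg, the host of 14 hairpins, is the largest such host of the members. The libraries were made from mRNA, so that mature microRNAs were not measured, and the hairpin genes listed inside members had at most 5 counts in any library. Mir1906-1, which shares exons with Meg3 in the GENCODE annotation, was not among those listed, and its sequences are not given.

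The members differed widely in level. Measured per exon length (FPKM, as deposited), the highest was Peg10, a retrotransposon-derived gene needed for the placenta, with 74 and 66.4 FPKM in WT and 92.2 and 75.6 FPKM in Haspin-KO. Mest, a hydrolase-like gene, and Slc38a4, an amino acid transporter gene, came next, and their WT levels of 57.4 ± 3.01 and 57.1 ± 3.94 FPKM (SD, n = 2) lay within each other's SD. Then followed Impact, Snrpn and Plagl1. The lowest member with counts was Asb4, which had 3 and 1 counts in WT and 4 and 4 in Haspin-KO and so was at the floor of 3 counts in WT only. Kcnq1ot1 ranked 35th by FPKM because its counts are divided by the whole of a 93092-base transcript, although it had 331 and 303 counts in WT. The summed level of the members was 3089.2 and 3167.2 CPM in the WT libraries and 4116.6 and 3998.7 CPM in the Haspin-KO libraries.

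**Figure D1:**
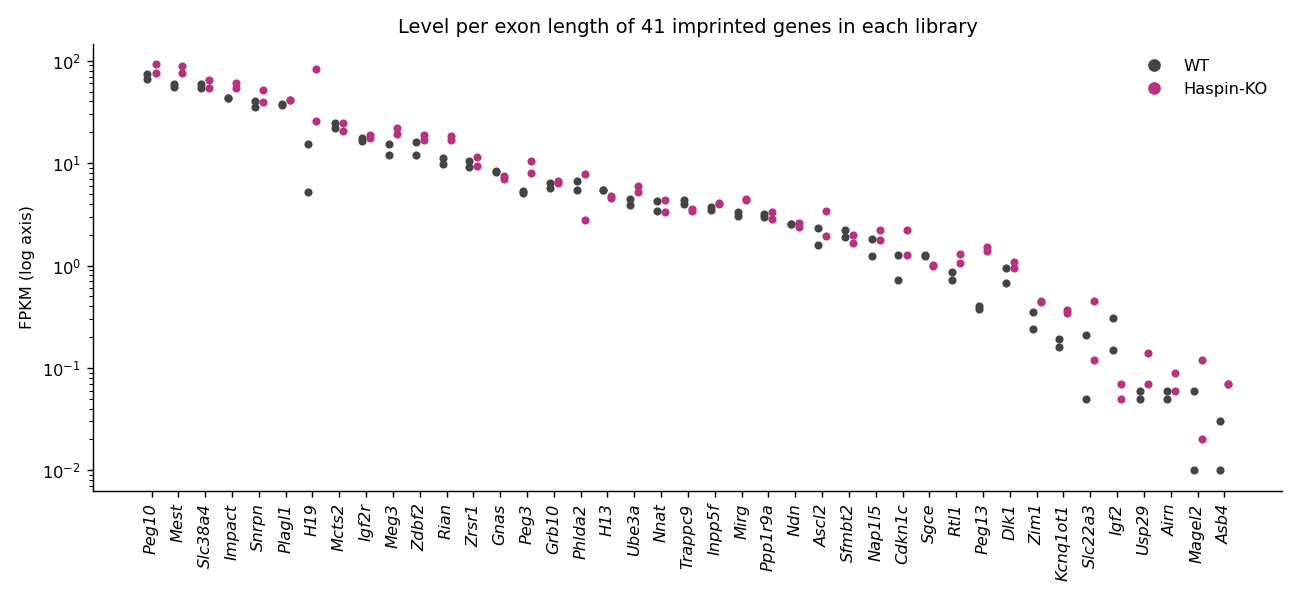
FPKM of the 41 imprinted genes with a count, on a log axis, in order of the mean over libraries (grey: 2 WT libraries, pink: 2 Haspin-KO libraries; values of 0 cannot be drawn). Peg10 and Mest are at the top and Magel2 and Asb4 at the bottom; the 2 Haspin-KO points of H19 stand above both WT points and far apart from each other.

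Across the tested members, higher levels in Haspin-KO were more common than lower ones. Of 38 members, 29 had a log2 fold change above 0 and 9 below 0, against 49.4% of all 15580 genes above 0. At an adjusted p under 0.05 (edgeR's quasi-likelihood test, Benjamini-Hochberg over all genes tested), 7 members were higher: Kcnq1ot1, Peg13, Peg3, Rian, Meg3, Mest and Impact. The share of all genes higher by this measure was 0.988%, and 2.5% passed in either direction. Of the 7, Kcnq1ot1 and Peg13 also passed the fold limit of 2 and were upregulated DEGs, as were 0.327% of all genes. No member was lower past an adjusted p of 0.05 (0 by edgeR and 0 by DESeq2, against 1.51% of all genes by edgeR, and 0.501% as downregulated DEGs), and 5 were lower at an unadjusted p under 0.05, against 10.4% of all genes. Both Haspin-KO libraries lay above both WT libraries for 20 members and below them for 5, against 25.3% and 26.9% of all genes. The median log2 fold change was 0.29 over the members and -0.0039 over all genes. Members of one domain share control regions and are not independent of each other. In limma's test on log2(FPKM + 0.1), 0 members and 0 of all genes passed, with 10 members at an unadjusted p under 0.05.

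Members of both parental classes were among those past the adjusted p. Of 22 tested members with paternal expression, 5 were higher past the adjusted p and 12 had both Haspin-KO libraries above both WT libraries. Of 16 with maternal expression, these numbers were 2 and 8. Both Haspin-KO libraries lay below both WT libraries for 2 paternal and 3 maternal members. Of all genes tested, 0.988% were higher past the adjusted p. Both Haspin-KO libraries lay above both WT libraries for 25.3% of all genes and below them for 26.9%. The median log2 fold changes were 0.26 and 0.42. No difference between the classes was tested.

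**Figure D2:**
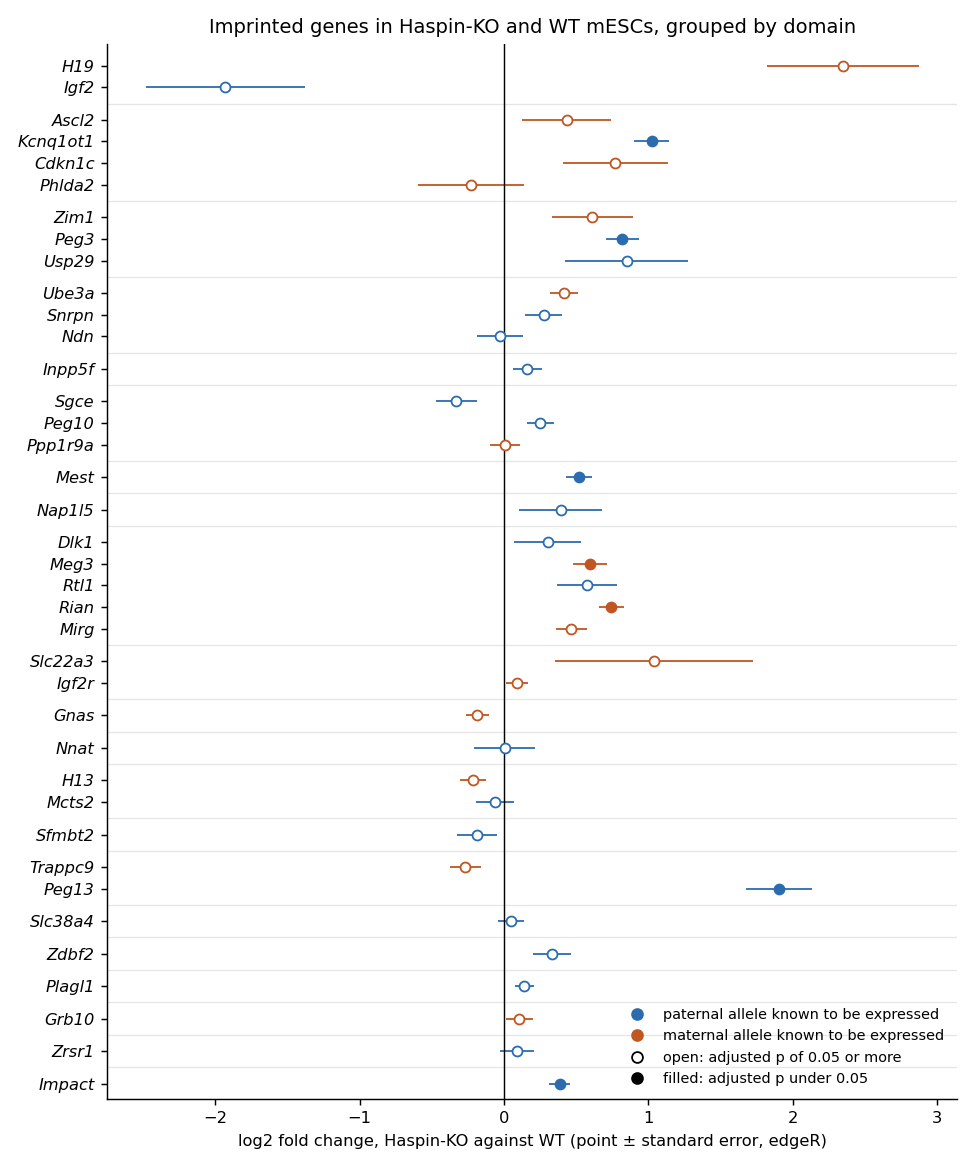
Log2 fold change of Haspin-KO against WT (point) with its SE (line) for the 38 tested imprinted genes, grouped by domain (blue: paternal, orange: maternal allele known to be expressed; filled: adjusted p under 0.05). The 7 filled points are all right of 0, and H19 and Igf2, the uppermost pair, lie furthest right and left with open points and long lines.

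Kcnq1ot1 (ENSMUSG00000101609, chr7:143203458-143296549, minus strand, mm10) is the paternally expressed noncoding RNA that silences its domain on distal chromosome 7 in cis. It had 15.1 and 17.4 CPM in the WT libraries and 33.9 and 32.2 CPM in the Haspin-KO libraries. The Haspin-KO libraries lay close together and well above both WT libraries. This gave a log2 fold change of 1.02 (SE 0.12, adjusted p = 0.00422), a 2.03-fold difference that just passed the fold limit. Without WT replicate 1 it was 0.92, and without Haspin-KO replicate 1 it was 0.99, so that the adjusted p held (0.0285 and 3e-07) but the fold limit did not. The transcript runs antisense through Kcnq1, a potassium channel gene, which had 1 and 3 counts in WT and 1 and 0 in Haspin-KO.

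None of the 3 maternally expressed genes of the Kcnq1 domain passed the adjusted p (0 by edgeR at an unadjusted p under 0.05 and 0 by DESeq2). Cdkn1c, an inhibitor of cyclin-dependent kinases, had 2.605 and 1.497 CPM in WT and 4.52 and 2.59 CPM in Haspin-KO, with overlapping groups (log2 fold change 0.77, SE 0.36, adjusted p = 0.265). Phlda2, a brake on placental growth, had 7.54 and 6.22 CPM in WT and 8.62 and 3.15 CPM in Haspin-KO. It is the most abundant member of this domain per length, and its Haspin-KO libraries spanned both WT libraries (log2 fold change -0.23, SE 0.36). Ascl2, a transcription factor of the trophoblast lineage, had 3.75 and 2.59 CPM in WT and 5.42 and 3.22 CPM in Haspin-KO and overlapped as well. Replicate 1 was above replicate 2 in both groups for all 3 genes.

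H19 and Igf2 are the textbook pair of oppositely imprinted neighbours, the first a maternally expressed noncoding RNA and the second a paternally expressed fetal growth factor. H19 (ENSMUSG00000000031, chr7:142575529-142578143, minus strand) had 37.98 and 13.02 CPM in WT and 200.2 and 63.6 CPM in Haspin-KO. Both Haspin-KO libraries were above both WT libraries, but replicate 1 was 2.92 times replicate 2 in WT and 3.15 times replicate 2 in Haspin-KO. Haspin-KO against WT was 5.27-fold in replicate 1 and 4.88-fold in replicate 2. The log2 fold change was 2.35 (SE 0.52), the largest of the members, with an adjusted p of 0.0511 that missed the threshold in edgeR and ranged from 3e-186 to 0.411 over the alternatives. It was 0.0284 without WT replicate 1, 3.27e-17 without Haspin-KO replicate 1 and 2.32e-15 without Haspin-KO replicate 2, each past the threshold, and 0.15 without WT replicate 2. Without each library in turn, the log2 fold change was between 1.30 and 3.34.

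Igf2 was the only tested member with a log2 fold change under -1. Its counts were 39 and 15 in WT and 6 and 4 in Haspin-KO, or 1.78 and 0.864 CPM in WT and 0.417 and 0.280 CPM in Haspin-KO, with both Haspin-KO libraries below both WT libraries. Its log2 fold change was -1.93 (SE 0.55, adjusted p = 0.0952), which did not pass in edgeR. The adjusted p was 0.012 without a filter on low counts, which passes, and ranged from 0.00258 to 0.555 over the alternatives. Without each library in turn, the log2 fold change of Igf2 was between -2.33 and -1.29, the latter without WT replicate 1. Of its exonic bases, 62.8% are shared with Gm49394 on the same strand, a gene that had 3, 0, 3 and 0 counts. In the same libraries the fibroblast markers, which were lower in Haspin-KO, moved in the direction of Igf2 and against that of H19. Their part in either result was not tested.

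**Figure D3:**
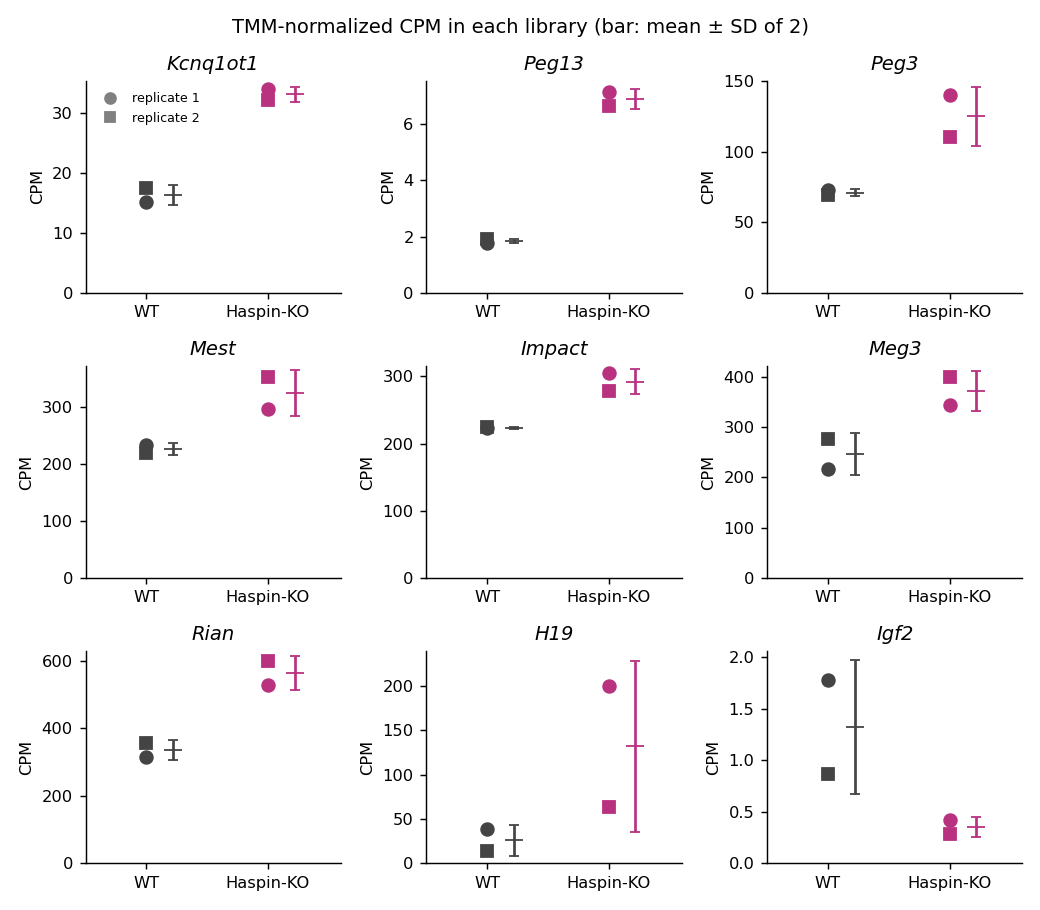
CPM of 9 imprinted genes in each library (circle: replicate 1, square: replicate 2; bar beside them: mean ± SD of 2 libraries; axes start at 0). The 7 genes past an adjusted p of 0.05, Kcnq1ot1 to Rian, have both Haspin-KO libraries above both WT libraries, while H19 shows the widest spread within Haspin-KO and Igf2 lies lower in Haspin-KO at under 2 CPM.

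Peg13 (ENSMUSG00000106847, chr15:72805600-72810324, minus strand), a paternally expressed noncoding RNA, showed the largest log2 fold change of the members past the adjusted p. It had 39 and 33 counts in WT and 103 and 95 in Haspin-KO, or 1.78 and 1.9005 CPM in WT and 7.16 and 6.64 CPM in Haspin-KO. Libraries of one group were nearly equal, and the groups were far apart. The log2 fold change was 1.91 (SE 0.23, adjusted p = 0.00463), a 3.75-fold difference, and it stayed between 1.85 and 1.95 without any one library. Peg13 lies inside an intron of Trappc9, a maternally biased gene of vesicle transport, on the same strand and shares no exonic base with it. Trappc9, the most abundant member of the domain, went the other way, with 31.7 and 34.7 CPM in WT and 26.4 and 28.7 CPM in Haspin-KO. Its groups did not overlap either, but its log2 fold change of -0.27 (SE 0.11) had an adjusted p of 0.203. The third member of the domain, Kcnk9, was at 0 as given above.

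On chromosome 12, all 5 listed members of the Dlk1-Meg3 domain had both Haspin-KO libraries above both WT libraries, against 25.3% of all genes. The maternally expressed noncoding RNAs of this domain are thought to form 1 long transcription unit that runs from Meg3 through Rian to Mirg, and their silencing is known from stem cell lines of poor developmental potency. Rian (ENSMUSG00000097451, chr12:109603808-109661716, plus strand), which hosts small nucleolar RNAs, had 316 and 358 CPM in WT and 529 and 599 CPM in Haspin-KO. Its log2 fold change was 0.74 (SE 0.09, adjusted p = 0.00422), and the ratio of Haspin-KO to WT was 1.68 in replicate 1 and 1.67 in replicate 2. Meg3 (ENSMUSG00000021268, chr12:109541001-109571726, plus strand) had 217 and 277 CPM in WT and 344 and 399.9 CPM in Haspin-KO. The log2 fold change of Meg3 was 0.59 (SE 0.12, adjusted p = 0.0327), and without WT replicate 1 it was 0.42 with an adjusted p of 0.126 (range over alternatives 3.42e-20 to 0.319). Both RNAs are thus higher by between 1.5-fold and 1.7-fold, with replicate 2 above replicate 1 in each group.

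Mirg, the third RNA of the unit, had 23.99 and 22.2 CPM in WT and 31.4 and 32.5 CPM in Haspin-KO and a log2 fold change of 0.47 (SE 0.11, adjusted p = 0.0559), just short of the threshold. Summed, the 3 RNAs made 557 and 657 CPM in WT and 905 and 1031.9 CPM in Haspin-KO. The paternally expressed genes of the domain differed in the same direction without passing the test. Rtl1, a retrotransposon-derived gene of the placenta, had 4.62 and 5.53 CPM in WT and 6.67 and 8.39 CPM in Haspin-KO (log2 fold change 0.58, SE 0.21, adjusted p = 0.167). Dlk1, a Notch-ligand-like growth regulator, had 5.35 and 3.86 CPM in WT and 6.05 and 5.38 CPM in Haspin-KO (log2 fold change 0.30, SE 0.23, adjusted p = 0.488). The 5 listed members of the domain thus had log2 fold changes of the same sign, but Dio3, a further gene of the domain that is counted among the neighbours, did not. Dio3, which encodes a deiodinase that inactivates thyroid hormone, had 12.8 and 12.04 CPM in WT and 10.3 and 9.93 CPM in Haspin-KO (log2 fold change -0.29, SE 0.15, adjusted p = 0.288).

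In the Peg3 domain on proximal chromosome 7, all 3 listed members had both Haspin-KO libraries above both WT libraries, against 25.3% of all genes. Peg3 (ENSMUSG00000002265, chr7:6703892-6730431, minus strand), a paternally expressed zinc finger gene tied to maternal behaviour and fetal growth, had 72.6 and 69.2 CPM in WT and 140.0 and 110.4 CPM in Haspin-KO. The WT libraries were nearly equal and the Haspin-KO libraries spread more. Peg3 had a log2 fold change of 0.82 (SE 0.11, adjusted p = 0.00777), and without WT replicate 2 the adjusted p was 0.0551 (range over alternatives 2.11e-30 to 0.269). Usp29, a ubiquitin protease gene transcribed from the opposite strand next to Peg3, had 24 and 17 counts in WT and 37 and 17 in Haspin-KO (log2 fold change 0.85, SE 0.43, adjusted p = 0.29). Zim1, a maternally expressed zinc finger gene, had 1.97 and 2.82 CPM in WT and 3.55 and 3.71 CPM in Haspin-KO (log2 fold change 0.61, SE 0.28, adjusted p = 0.253). Usp29 had 1.10 and 0.979 CPM in WT and 2.57 and 1.19 CPM in Haspin-KO, so that its groups were separate by a narrow margin. Without Haspin-KO replicate 1 the log2 fold change of Usp29 was 0.19. Both genes had at most 53 counts in any library, which limits the precision of their values. Zfp264, a gene beside them counted among the neighbours, was lower, with 24.3 and 24.5 CPM in WT and 19.3 and 23.1 CPM in Haspin-KO. Its log2 fold change was -0.20 (SE 0.13, adjusted p = 0.39). Zim3, whose exons overlap those of Usp29, had 9 and 6 counts in WT and 5 and 3 in Haspin-KO and was not tested.

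A list of further genes, called neighbours here because most lie in or beside the domains (Nhlrc1 on chromosome 13 does not), held 37 tested genes and gave 0 past an adjusted p of 0.05 in edgeR and 2 in DESeq2 (Ago2 and Snhg14). At an unadjusted p under 0.05, edgeR gave 3 higher and 5 lower. The median log2 fold change of these neighbours was -0.0016. The difference between members and neighbours was not tested.

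**Figure D4:**
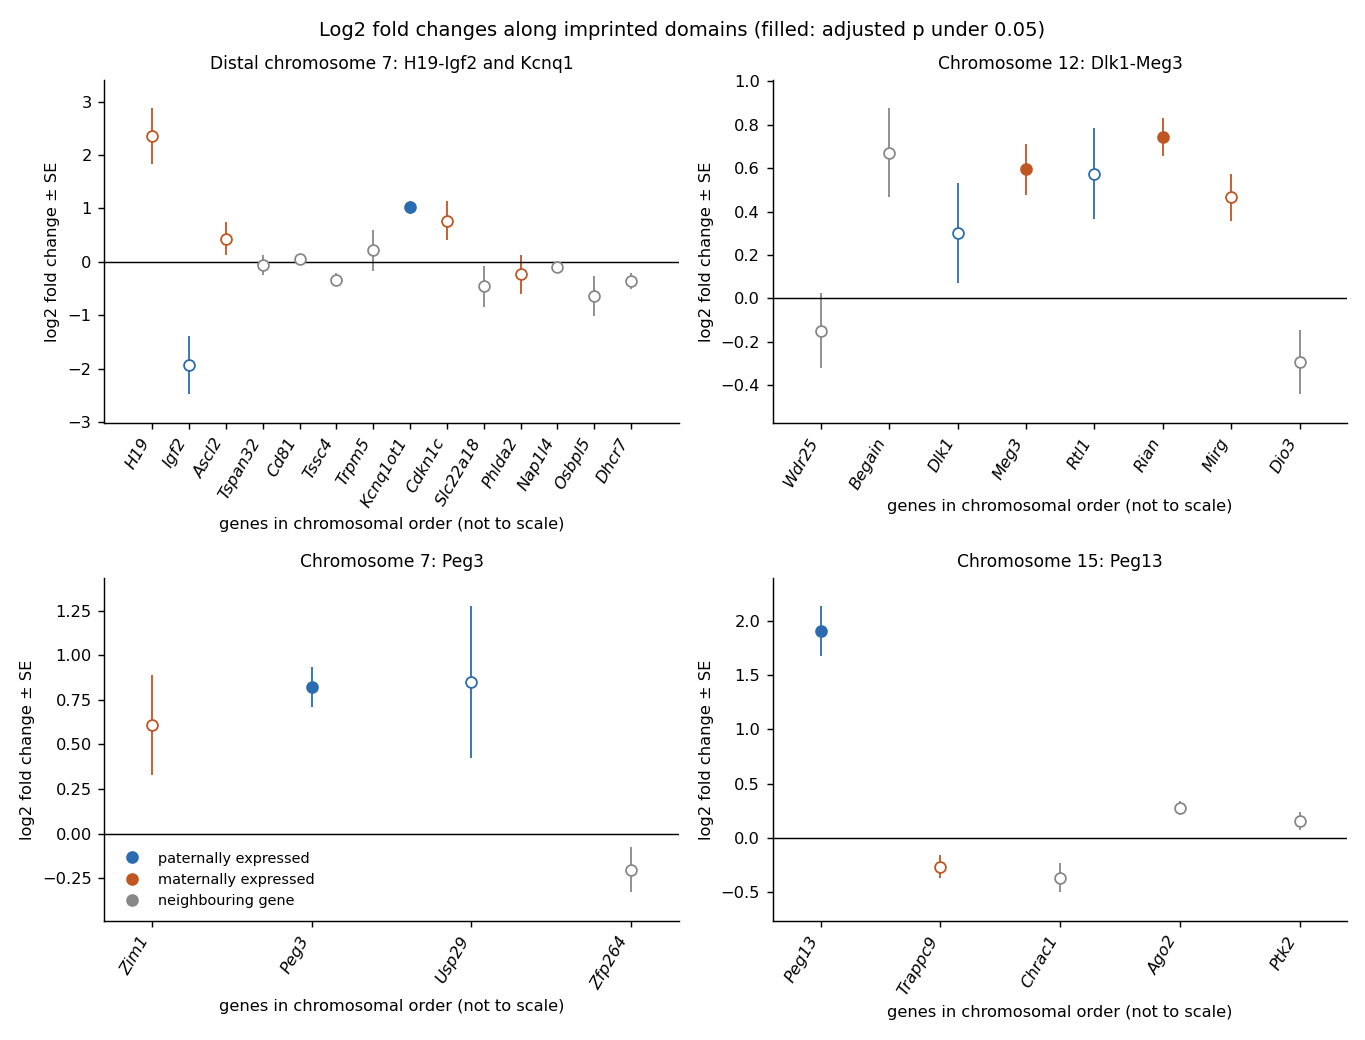
Log2 fold change ± SE of tested genes along distal chromosome 7, the Dlk1-Meg3 domain, the Peg3 domain and the Peg13 domain, in chromosomal order without a distance scale (blue: paternal, orange: maternal, grey: neighbouring genes; filled: adjusted p under 0.05). In the Dlk1-Meg3 and Peg3 panels every listed member (blue or orange) is above 0, while in the Peg13 panel only Peg13 stands well above 0 and Trappc9 is below it.

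Mest and Impact were the other members past the adjusted p, both paternally expressed and both abundant. Mest (ENSMUSG00000051855, chr6:30723547-30748465, plus strand) had 234 and 219 CPM in WT and 297 and 353 CPM in Haspin-KO. Its log2 fold change was 0.52 (SE 0.09, adjusted p = 0.0226). Without either WT library the call was lost, with an adjusted p of 0.0615 without WT replicate 1 and 0.113 without WT replicate 2 (range over alternatives 8.16e-15 to 0.27). Exons of Copg2, a coat protein gene on the opposite strand, cover 23.1% of the exonic bases of Mest. Copg2 had 112 and 119.8 CPM in WT and 94.4 and 109 CPM in Haspin-KO (log2 fold change -0.19, SE 0.09, adjusted p = 0.274), in the direction opposite to Mest.

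Impact (ENSMUSG00000024423), an inhibitor of the amino acid sensor kinase GCN2, had 223 and 225 CPM in WT and 305 and 279 CPM in Haspin-KO. The WT libraries were nearly equal and the Haspin-KO libraries were both higher. The log2 fold change of 0.39 (SE 0.07, adjusted p = 0.0307) was the smallest among the members past the threshold. Its adjusted p was 0.14 without WT replicate 1, 0.115 without WT replicate 2 and 0.0505 without Haspin-KO replicate 1 (range over alternatives 2.12e-08 to 0.267).

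The Snrpn-Ube3a domain, whose human counterpart is tied to Prader-Willi and Angelman syndromes, had no member past the adjusted p in edgeR and 1, Ube3a, in DESeq2. Snrpn, a paternally expressed splicing protein gene and the most abundant of the domain, had 35.2 and 39.97 FPKM in WT and 39.7 and 51.3 FPKM in Haspin-KO, with overlapping groups. Ube3a, a ubiquitin ligase gene, had 80.2 and 92.1 CPM in WT and 122 and 108 CPM in Haspin-KO. Its groups did not overlap (log2 fold change 0.41, SE 0.10, adjusted p = 0.0583 in edgeR), and DESeq2 gave a log2 fold change of 0.41 with an adjusted p of 0.0225. Exons of Snhg14, the antisense transcript of Ube3a, cover 8.74% of its exonic bases, and Snhg14 had 352 and 491 counts in WT and 506 and 533 in Haspin-KO (log2 fold change 0.72, SE 0.21, adjusted p = 0.104). Where counting ignored strand, reads of such pairs cannot be told apart. Ndn, a growth suppressor gene, had 9.28 and 9.502 CPM in WT and 9.45 and 8.95 CPM in Haspin-KO and Magel2 1 and 5 and 1 and 8 counts.

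None of the members of the domains that follow passed the adjusted p in edgeR or DESeq2. Peg10 had 492 and 445 CPM in WT and 607 and 509 CPM in Haspin-KO (log2 fold change 0.25, SE 0.09, adjusted p = 0.172). Sgce, a sarcoglycan gene whose start lies next to that of Peg10, had 13.1 and 13.5 CPM in WT and 10.6 and 10.6 CPM in Haspin-KO (log2 fold change -0.33, SE 0.14, adjusted p = 0.226). These neighbours thus had opposite signs without either passing. Ppp1r9a of the same domain, a neuronal actin-binding protein gene, had a log2 fold change of 0.0062 (SE 0.11).

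Igf2r, which clears the growth factor IGF2 from the cell surface, had 16.6 and 17.4 FPKM in WT and 18.8 and 17.6 FPKM in Haspin-KO (log2 fold change 0.09, SE 0.07). Its groups were separate by a narrow margin. Airn, the paternal noncoding RNA that silences Igf2r in tissues, had 5 and 5 counts in WT and 6 and 4 in Haspin-KO and was too low for a test. Slc22a3, an organic cation transporter gene of that domain, had 21 and 4 counts in WT and 29 and 8 in Haspin-KO, and its log2 fold change of 1.04 (SE 0.69) turned to -0.15 without Haspin-KO replicate 1.

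Zdbf2, a gene active in the early embryo and in control of growth, had 11.9 and 16.1 FPKM in WT and 16.6 and 18.8 FPKM in Haspin-KO (log2 fold change 0.33, SE 0.13, adjusted p = 0.195). Plagl1, a zinc finger factor that acts on other imprinted genes, had 36.7 and 37.8 FPKM in WT and 41.2 and 41.1 FPKM in Haspin-KO (log2 fold change 0.14, SE 0.07). For both, each Haspin-KO library was above each WT library. The 2 libraries of Slc38a4 had 59.8 and 54.3 FPKM in WT and 64.3 and 53.9 FPKM in Haspin-KO and overlapped. Grb10, an adaptor that restrains insulin and growth factor signalling, had 6.42 and 5.69 FPKM in WT and 6.64 and 6.45 FPKM in Haspin-KO (log2 fold change 0.11, SE 0.09).

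Gnas, which encodes the stimulatory G protein subunit, was lower in both Haspin-KO libraries at 94.3 and 92.7 CPM in WT and 84.3 and 80.2 CPM in Haspin-KO, without passing (log2 fold change -0.18, SE 0.08, adjusted p = 0.224). H13, a signal peptide peptidase gene, likewise had 47.9 and 48.3 CPM in WT and 40.04 and 42.8 CPM in Haspin-KO (log2 fold change -0.22, SE 0.09, adjusted p = 0.215). Along with Igf2, Sgce and Trappc9, these were the 5 members with both Haspin-KO libraries below both WT libraries, and all 5 had an unadjusted p under 0.05. Mcts2, a retrogene inside an intron of H13 on its strand, had 24.6 and 22.1 FPKM in WT and 24.4 and 20.6 FPKM in Haspin-KO and overlapped.

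The other domains each hold 1 member. Inpp5f, a phosphoinositide phosphatase gene, had 3.49 and 3.72 FPKM in WT and 4.08 and 4 FPKM in Haspin-KO, with separate groups. Zrsr1, a splicing factor retrogene inside Commd1, had 10.6 and 9.11 FPKM in WT and 11.6 and 9.44 FPKM in Haspin-KO. Nnat, a gene of the endoplasmic reticulum inside Blcap, had 3.43 and 4.23 FPKM in WT and 3.35 and 4.32 FPKM in Haspin-KO. The last pair overlapped between the groups, as did the remaining genes. Sfmbt2, a Polycomb gene of the placenta, had 2.2 and 1.91 FPKM in WT and 1.97 and 1.66 FPKM in Haspin-KO, and Nap1l5, a retrogene inside Herc3, had 1.24 and 1.83 FPKM in WT and 1.79 and 2.22 FPKM in Haspin-KO. Their log2 fold changes were between -0.19 (Sfmbt2) and 0.39 (Nap1l5), and none had an adjusted p under 0.05.

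The members were also viewed by gene class, a grouping chosen after their values were seen. All 6 tested noncoding RNAs of the list (Kcnq1ot1, Peg13, Meg3, Rian, Mirg and H19) had both Haspin-KO libraries above both WT libraries, and 4 passed the adjusted p, with a median log2 fold change of 0.88. Of 32 protein-coding members, 14 had both Haspin-KO libraries above, 5 had both below and 3 passed, with a median of 0.15. Among the 983 other long noncoding RNAs tested, 287 had both Haspin-KO libraries above and 160 had both below. Of these, 6 were higher and 3 lower past the adjusted p, with a median log2 fold change of 0.12. Among the 13301 other protein-coding genes tested, 3303 had both Haspin-KO libraries above and 3724 had both below. Of these, 130 were higher and 212 lower past the adjusted p, with a median log2 fold change of -0.012. Malat1 and Neat1, abundant nuclear RNAs outside the imprinted domains, had log2 fold changes of 0.23 (SE 0.16, adjusted p = 0.454) and -0.033 (SE 0.10, adjusted p = 0.885).

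Libraries of one group also differed in some members. The level in replicate 1 was more than 1.5 times that in replicate 2 for 4 of 39 members in WT (Cdkn1c, H19, Igf2 and Slc22a3) and for 6 of 40 in Haspin-KO (Ascl2, Cdkn1c, H19, Phlda2, Slc22a3 and Usp29). No member was lower by that factor. These members had more than 3 counts in both libraries of the group. Over the 15413 tested genes with more than 3 counts in every library, 4.9% in WT and 7.48% in Haspin-KO exceeded that factor. The ratio was highest in both groups for Slc22a3, at 4.17 in WT and 3.604 in Haspin-KO. In the same libraries, the summed level of 6 primitive endoderm markers was 40.4 and 33.3 CPM in WT and 41.4 and 29.5 CPM in Haspin-KO, and that of 6 trophoblast markers was 68.9 and 75.0 CPM and 71.3 and 71.0 CPM. Of the single trophoblast markers, Cdx2, Tfap2c, Hand1 and Plac1 were higher in replicate 1 in both groups, and Eomes was higher in replicate 2. Cdx2 had 3.70 and 2.30 CPM in WT and 2.99 and 1.47 CPM in Haspin-KO. Hand1 and Plac1 had at most 18 counts in any library, and Elf5 had at most 4. Tfap2c had 36.5 and 22.4 CPM in WT and 40.6 and 23.2 CPM in Haspin-KO, while Eomes had 27.6 and 50.05 CPM in WT and 25.9 and 45.8 CPM in Haspin-KO. Their part in the replicate differences was not tested.

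**Figure D5:**
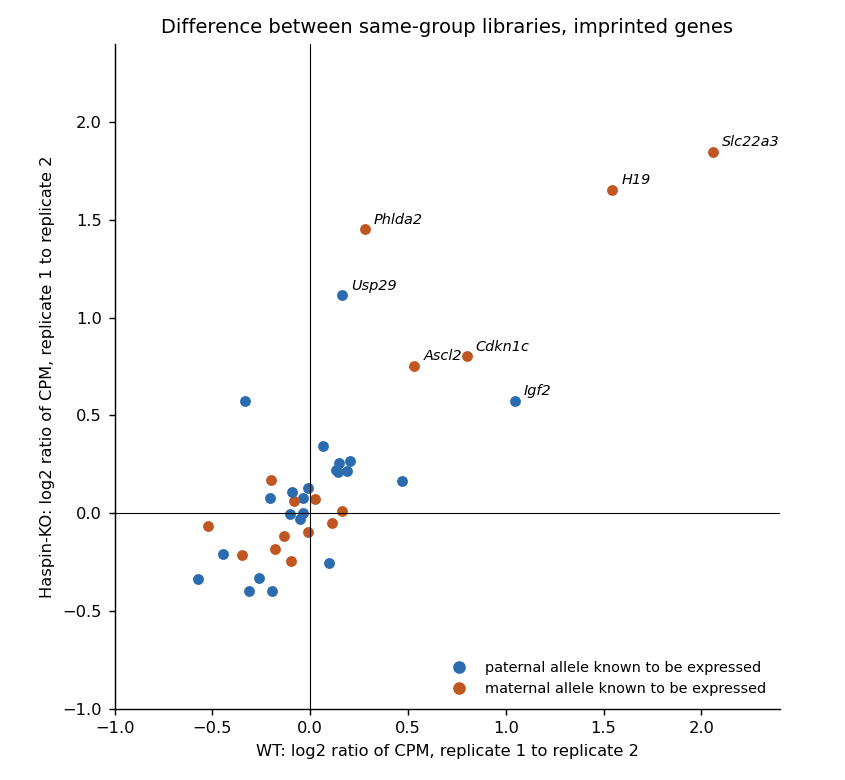
Log2 ratio of CPM between replicate 1 and replicate 2 in WT (horizontal) and in Haspin-KO (vertical) for the members with a ratio in both groups (blue: paternal, orange: maternal allele known to be expressed; named where a ratio exceeds 1.5). Slc22a3 and H19 lie at the upper right, high in both groups, while most members cluster around 0.

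Factors known to set, read or erase imprints were set beside the members. Of 23 such genes, among them Zfp57, Trim28, Dnmt1 and Uhrf1, 22 were tested and 0 passed an adjusted p of 0.05 in edgeR. DESeq2 passed 1, Atrx. At an unadjusted p under 0.05, edgeR gave 9 higher and 0 lower, against 10.4% of all genes in each direction, and the median log2 fold change was 0.085. The 9 were Atrx, Dnmt3b, Hells, Zfp445, Smchd1, Tet1, Dnmt3a, Arid4b and Eed. Their log2 fold changes lay between 0.17 (Eed) and 0.36 (Tet1). Zfp57, which reads the motif shown above, had 531 and 684 CPM in WT and 532 and 699 CPM in Haspin-KO, with overlapping groups. Dnmt1, the maintenance methyltransferase, had 437 and 435 CPM in WT and 424 and 452 CPM in Haspin-KO.

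Markers of the 2-cell-like state, a rare transient state of mESC cultures, moved with the groups. Of 6 such markers, 3 were upregulated DEGs (Zscan4c, Zscan4d and Zscan4f) and 0 were lower, and their summed level was 39.8 and 34.8 CPM in WT and 98.2 and 82.1 CPM in Haspin-KO. As with the fibroblast markers, their part in the levels of the imprinted genes was not tested. WT libraries were deeper, by a ratio of mean totals of 1.37. After the libraries were thinned to the smallest total, 8 members were past the adjusted p, and 3.16% of all genes were.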

How the data were processed

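RNA-seq libraries of WT and Haspin-KO E14 mESCs, 2 per group, were grouped by their labels. The authors extracted RNA with TRIzol, made libraries with a SMARTER mRNA-Seq kit, trimmed reads with cutadapt (1.9.1) and mapped them to mm10 with HISAT2 (2.0.1). The submitters' processing notes also name HTSeq (0.6.1) and DESeq2, without giving their roles. The strand setting and the annotation release are not given in the sources used here. The authors deposited raw counts per gene, without normalization, and FPKM values, which equal counts divided by exonic length and library total in 100% of values (tolerance 0.005). Of 55401 genes, 26731 had no count in any library, and symbols that occur more than once (107) were handled by identifier.

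From the counts, 15580 genes passed edgeR's filterByExpr and were tested with edgeR (4.0.16, R 4.3.3), TMM, the quasi-likelihood test without a block and Benjamini-Hochberg adjustment over all of them. The SE was taken as the absolute log2 fold change over the root of its F statistic. DEGs had a fold change over 2 besides an adjusted p under 0.05. The floor was 3 counts per library, or between 0.137 and 0.211 CPM, and covers counting error only. Alternatives were DESeq2 (1.42.0), DESeq2's size factors, library totals, no filter, a minimum of 10 counts, limma (3.58.1) on log2(FPKM + 0.1), where 2 or more libraries had to reach an FPKM of 0.5, a pseudocount of 1, thinning, a replicate block and leaving each library out.

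The members and lists were chosen with earlier results of these data known. Named were all members, with all statistics for those past the adjusted p and values in each library for the most abundant member of each domain. Genes of the other lists were named past the adjusted p or where they share reads with a member. Igf2, H19 and the other members given in full, the gene classes, Malat1, Neat1, Zfp57, Trim28, Dnmt1, Uhrf1, Tfap2c, Eomes, Dio3, Nhlrc1, the neighbours drawn, and the genes called only under alternatives were chosen for mention with their values in view, that is after they were seen. So were the other trophoblast markers named and the imprint factors with an unadjusted p under 0.05 in edgeR. Shared exons were computed from GENCODE M21 (GRCm38), in which 41 of 42 members have the deposited coordinates and 38 the deposited exonic length. Rian differs in both, with 18234 exonic bases there and 31981 as deposited. Promoter and microRNA sequences came from RefSeq (GRCm38.p6), and 33 of 42 members had a promoter window in the set used. Member windows on chromosome 18, which holds Impact, were left out of that set.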

Additional observations from a re-analysis of the deposited data

How the results depend on the processing

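Over the 14 alternatives, results of the tested members kept their direction and their side of the threshold in 444 comparisons with the values reported. They passed it anew in 29, no longer passed in 26 and turned direction in 21. An alternative that kept the direction but gave no adjusted p, as DESeq2 did for Igf2 and Usp29, counts among the 444. Kcnq1ot1, Rian and Peg13 had an adjusted p under 0.05 in all 11 count-based tests that could include them, Peg3 and Meg3 in 10, Mest in 9, Impact in 8 and H19 in 7. Upregulated DEGs (2) became 0 with limma on log2(FPKM + 0.1), where the fit called 0 genes of all tested, and 7 at any fold; downregulated DEGs (0) became 1 without a filter, and leaving out each library gave 0 to 1. Members past the adjusted p at any fold (7) became 12 without a filter (adding H19, Igf2, Mirg, Ube3a and Zdbf2, with 4.09% of all genes called), 8 with DESeq2 (adding Ube3a) and 0 with limma. Leaving out each library gave 4 (without WT replicate 2, 0.635% of all genes) to 11 (without Haspin-KO replicate 1, 4.61% of all genes). A group left with 1 library was assumed to vary like the other. Imprint factors past the adjusted p (0) became 1 with DESeq2 (Atrx), 3 without a filter (Atrx, Hells and Tet1) and 0 to 2 with each library left out. Neighbouring genes (0) became 2 with DESeq2 and 2 without a filter (Ago2 and Snhg14 in both), and 0 to 2 with each library left out. The cause of these changes was not tested.

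With the replicate number as a block, 19 members (15 higher and 4 lower), 10 imprint factors and 9 neighbouring genes passed, 1 member (Igf2) was a downregulated DEG, and 3514 of all genes (22.6%) passed. The differences between replicates 1 and 2 correlated between the groups (r = 0.34 across genes, which are not independent), but 2 pairs of numbers do not show that libraries were paired. Under the block, residual degrees of freedom fell from 2 to 1. The prior degrees of freedom, the weight given to variance shared across genes, were infinite, against 7.42 without the block. Adjusted p-values and counts of genes passing under the block thus do not reflect the spread of each single gene. The lowest adjusted p in each range over alternatives given above came from this fit.

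Near-zero log2 fold changes turned sign. Nnat became -0.0030 with DESeq2, -0.024 without a filter, -0.0017 with limma with and without its filter, -0.00084 with a pseudocount of 1 and -0.0049 with the block, and ran from -0.21 to 0.19 with each library left out. Ppp1r9a became -0.022 without a filter and -0.0315 after thinning (-0.124 to 0.125 with each library left out). With each library left out, the log2 fold change ran from -1.13 to 0.32 for Phlda2, -0.066 to 0.0067 for Ndn, -0.15 to 2.44 for Slc22a3, -0.17 to 0.037 for Mcts2, -0.067 to 0.15 for Slc38a4 and -0.047 to 0.21 for Zrsr1. Depth limits the values of Igf2, Usp29, Slc22a3 and the members not tested, which had at most 39 counts in any library.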
